A study of Mus musculus with 12 samples.

Results

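Alternative splicing lets a muscle cell make its own forms of sarcomere, calcium and signalling proteins from genes that other cells also use. It is set by RNA-binding proteins that bind beside an exon and raise or lower its inclusion. The 10 regulators described here were the muscleblind-like genes Mbnl1, Mbnl2 and Mbnl3, the CELF genes Celf1 and Celf2, the RBFOX genes Rbfox1 and Rbfox2, the polypyrimidine tract-binding genes Ptbp1 and Ptbp2, and Rbm24. Every probe whose RefSeq accession belongs to one of these symbols was taken, which gave 26 probes of 10 genes among 37246 probes on the array. All 26 probes were among the 22954 probes tested, that is, flagged by the scanner as well above background throughout 1 or more stages (all 3 arrays). The rule uses no measured value, although the genes were chosen with earlier results of these data known.

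The cells were C2C12, an established mouse myoblast line that fuses into myotubes when serum is lowered. Proliferating cells were grown in DMEM with 10% fetal bovine serum to 80 to 90% confluence, and the other 3 groups were then held in DMEM with 2% horse serum for 2, 5 or 8 days. Each of the 4 stages had 3 arrays, recorded as independent experiments, and the labels name no genetic change or drug in any group. Since the labels do not describe how far the cultures were separate, the p-values cover only array-to-array spread, which may be technical. The files carried a processed one-colour signal, which is printed here as a scaled signal, with the 75th percentile of every array set to 1585. A change is a difference of log2 signals with its standard error (SE, n = 3 arrays per stage) from limma, and it was called when the p-value adjusted over all tested probes lay under 0.05. Where a gene had several probes, the brightest stands for the gene unless another is named. A probe reads the RNA of a gene and not which exons are in it, and signals of different probes cannot be ranked against each other.

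The proteins fall into opposing families. MBNL and CELF proteins act on many of the same exons, often in opposite directions, and the loss of free MBNL protein underlies the mis-splicing of myotonic dystrophy. RBFOX proteins and RBM24 promote the inclusion of many muscle exons. PTBP1 represses tissue-specific exons in dividing cells, and PTBP2 is its relative in neurons.

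The stretch of 250 bases before each annotated start was read from RefSeq on the mouse assembly GRCm38.p6, which gave 15 starts for 9 of the 10 members, all but Rbfox2. It was searched for CANNTG, the general E-box, which reads the same on both strands. MyoD-family factors bind forms of it, and so do other factors. This motif was present in 8 of the 15 stretches and in 66.2% of the 32851 promoters of the table, so its presence is common. The stretches of the first and second Celf2 starts overlap and hold the same matches, so the 8 are not all separate. CANNTG was absent from the only start of Mbnl2, Mbnl3, Celf1 and Ptbp2. The first start of Rbfox1, the second of Mbnl1 and the fourth of Celf2 also lacked it. Each promoter printed below holds the motif. The promoters of a strong riser, of the member that went from background to signal, and of a member that fell are shown with every CANNTG in capitals, 5′ to 3′ on the plus strand. Rbm24 is at chr13:46418050-46418299, the second start of Rbfox1 at chr16:7069585-7069834 and Ptbp1 at chr10:79854182-79854431.
Rbm24: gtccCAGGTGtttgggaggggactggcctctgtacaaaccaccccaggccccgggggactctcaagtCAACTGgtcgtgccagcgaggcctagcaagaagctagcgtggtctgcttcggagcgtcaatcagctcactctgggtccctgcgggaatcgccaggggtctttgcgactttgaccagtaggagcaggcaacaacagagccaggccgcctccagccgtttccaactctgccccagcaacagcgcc
Rbfox1: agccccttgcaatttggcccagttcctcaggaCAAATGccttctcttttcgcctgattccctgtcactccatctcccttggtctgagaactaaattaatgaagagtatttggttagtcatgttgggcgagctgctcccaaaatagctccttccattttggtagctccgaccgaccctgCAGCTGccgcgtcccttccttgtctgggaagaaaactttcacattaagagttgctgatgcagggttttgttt
Ptbp1: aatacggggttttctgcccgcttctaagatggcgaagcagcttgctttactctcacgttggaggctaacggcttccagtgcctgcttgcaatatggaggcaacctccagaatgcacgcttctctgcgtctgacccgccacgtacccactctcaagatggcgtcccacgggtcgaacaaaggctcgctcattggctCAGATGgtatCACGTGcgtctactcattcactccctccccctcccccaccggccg
The E-boxes lay 246 and 183 bases before the start in Rbm24, 218 and 72 in Rbfox1, and 55 and 45 in Ptbp1. The match at 246 in Rbm24 read CACCTG on the minus strand, a form in 17.2% of promoters, and the match at 72 in Rbfox1 read CAGCTG, a form in 13%. In Ptbp1 the match at 45 read CACGTG, a form whose share of promoters was not counted. A match describes these letters and no binding was measured.

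Between arrays of one stage, log2 signals correlated at 0.985 to 0.994 across probes, against 0.929 to 0.985 between stages. Muscle markers were detected, with at least 10 of 12 well above background on every array. Their summed scaled signal went from 212856 to 279491 at proliferation to 1059000 to 1160720 at day 5. At day 8 it was 687448 to 862258, below every day 5 array, and 3 of the 12 (Myod1, Myog and Cdh15) fell from day 5 to day 8. Against proliferation, 8 rose and 1 (Myod1, log2 -0.52) fell at day 2, beside 18.3% and 12.2% of all probes. At day 5, 11 rose and 1 (Myf5, -0.39) fell, beside 23.7% and 23.8%. At day 8, 8 rose and 1 (Myf5, -0.46) fell, beside 25.4% and 29.4%, and Myod1, Des and Cdh15 were not called. The arrays lay on 3 slides. Slide 1 held the 3 proliferation arrays and day 2 array 1, slide 2 held day 2 arrays 2 and 3 with day 5 arrays 1 and 2, and slide 3 held day 5 array 3 with the 3 day 8 arrays. Stage and slide are thus partly tied, and a slide-blocked fit, with the slide as an added term, is given beside the members it changes. Proliferation and day 8 share no slide, so that comparison then runs through the day 2 and day 5 arrays.

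Across the 4 stages, 9 of the 10 members changed by limma's F test, beside 65.8% of all tested probes. At day 5 against proliferation 4 members rose (Rbm24, Rbfox1, Celf2 and Rbfox2) and 5 fell (Mbnl2, Mbnl3, Celf1, Ptbp1 and Ptbp2), beside 47.5% of all probes (23.7% higher and 23.8% lower). At day 8 the same 4 were higher, and Mbnl3, Celf1 and Ptbp1 were lower, beside 54.8% of all probes (25.4% higher and 29.4% lower). At day 2 Rbm24 and Rbfox2 were higher and Mbnl1, Mbnl2 and Ptbp2 lower, 5 of 10 beside 30.6% of all probes (18.3% higher and 12.2% lower). From day 2 to day 5, Rbm24 and Celf2 rose and Mbnl3, Celf1 and Ptbp1 fell, 5 of 10 beside 30.1% (14.4% higher and 15.7% lower). From day 5 to day 8 only Mbnl2 was called, 1 of 10 beside 12.6% (5.89% higher and 6.72% lower). Where the text says that the arrays of 2 stages did not overlap, that held for 46.3%, 56.3% and 63.5% of all probes at day 2, 5 and 8 against proliferation. It held for 45% from day 2 to day 5 and for 36.1% from day 5 to day 8. The median change of the 10 members was -0.18, -0.54 and -0.11 at day 2, 5 and 8, where that of all probes was 0.07, -0.02 and -0.11. In the slide-blocked fit, members called went from 5 to 3 at day 2, where all probes called went from 7018 to 3519. At day 5 members went from 9 to 5 and all probes from 10914 to 5210. At day 8 members went from 7 to 3 and all probes from 12571 to 3971. The 3 that were higher at day 8 in both fits were Rbm24, Rbfox1 and Celf2. Rbfox1 is counted in the slide-blocked fit at day 2, 5 and 8. Its blocked values all run through day 2 array 1, on which its probes parted, and rest on background readings at proliferation. In RNA from a whole culture, a change in the share of cells of a kind and a change in RNA per cell cannot be told apart.

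**Figure D1:**
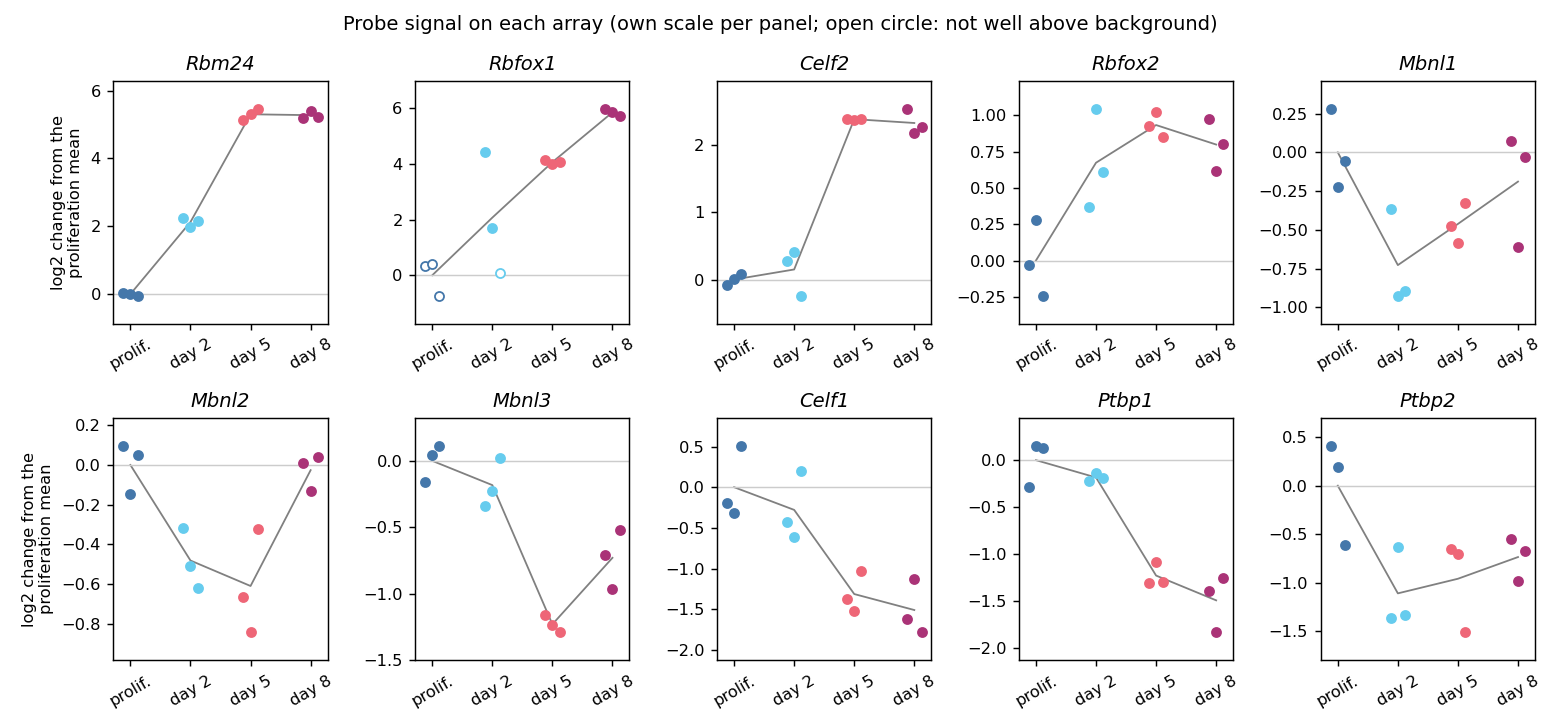
Log2 change of each member's brightest probe from its proliferation mean, on each of the 12 arrays, by stage; lines join stage means, open circles mark arrays where the probe was not well above background, and each panel has its own vertical scale. The 3 Rbm24 points of every stage lie close together, whereas the day 2 arrays of Rbfox1 spread from a scaled signal of 4.21 to 86.2.

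Rbm24, an RNA-binding protein that promotes the inclusion of muscle exons, rose from proliferation to day 2 and again from day 2 to day 5 (log2 3.18, adjusted p = 1e-07). Its scaled signal (probe for NM_001081425) was 190, 187 and 180 on the 3 proliferation arrays and 882, 735 and 818 at day 2. It was 6559, 7329 and 8141 at day 5, and 6817, 7889 and 6886 at day 8. Every day 2 array lay above every proliferation array and below every day 5 and day 8 array, while day 5 and day 8 overlapped. The rise was 4.37-fold at day 2 (log2 2.13 ± 0.13 SE, adjusted p = 9.31e-06), 39.5-fold at day 5 (5.30, adjusted p = 1.5e-09) and 38.7-fold at day 8 (5.28, adjusted p = 8.45e-10). Among 22954 probes it ranked 163rd, 103rd and 125th by rise at the 3 stages. The change from day 5 to day 8 was -0.03 (adjusted p = 0.911). Within slides, where shared arrays allow it, the change was 2.25 from proliferation to day 2, 3.16 from day 2 to day 5 and -0.18 from day 5 to day 8. All 3 rises from proliferation stayed called under every alternative that gave a value. The fit without non-uniform spots gave none, since the probe was flagged non-uniform on every array after proliferation. The 3 genes with the most similar course over the 12 arrays, out of 13632 protein-coding genes, were Cfap52 (r = 0.997), the slow troponin T gene Tnnt1 (r = 0.997) and Cox8b, a muscle form of a cytochrome c oxidase subunit (r = 0.997).

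Rbfox1, a regulator of exons in muscle and neurons, passed from background to a clear signal. Its brighter probe (NM_021477) read 4.97, 5.30 and 2.39 in scaled signal at proliferation, not well above background on any of the 3 arrays. At day 2 the values were 86.2, 12.9 and 4.21, the last of them not well above background. The day 5 arrays read 69.8, 64.0 and 66.1 and the day 8 arrays 250, 232 and 210. Day 2 thus spanned from the proliferation level to above the day 5 level, while day 8 lay above all other arrays. Since proliferation gives only a bound, the signal as deposited and scaled was at least 4.17-fold higher at day 5 and at least 14.4-fold higher at day 8. This bound sets the bright stage against, per array, the higher of the probe's own signal and the lowest signal among probes well above background. The adjusted p was 0.00189 and 0.000134, and the fitted log2 changes of 4.06 and 5.85 rest on background readings. With normexp background correction they were 1.26 and 2.67, smaller than the bounds, which hold for the deposited background handling only. In the slide-blocked fit they were 7.62 and 9.42, values that run through day 2 array 1 at 86.2.

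The other Rbfox1 probe (NM_183188) read 4.97, 4.52 and 1.84 at proliferation and 8.08, 9.06 and 6.09 at day 2, where only array 2 was well above background. It read 74.3, 87.7 and 89.8 at day 5 and 209, 240 and 228 at day 8. Both probes therefore showed the late signal, and they parted on day 2 array 1, at 86.2 against 8.08. On the deposited signal, the second probe gave at least 5.24-fold at day 5 and at least 14.1-fold at day 8. From day 5 to day 8, both measured on all arrays, it rose (log2 1.43 ± 0.32 SE, adjusted p = 0.0183). Its difference from day 2 to day 5 (3.45, adjusted p = 1.46e-05) rests on a day 2 mean in which 1 of 3 arrays was well above background, so its size is set in part by background readings. The brighter probe was called at neither step (1.99, adjusted p = 0.0924, and 1.79, adjusted p = 0.174). Without day 2 array 1 the brighter probe was called from day 5 to day 8 (1.79, adjusted p = 0.0208). It was then also called from day 2 to day 5 (3.18, adjusted p = 0.000558), but against 12.9 and 4.21, where 1 of the 2 arrays was not well above background, so the size is no measure of the rise. At day 2 its change of 2.07 was not called (adjusted p = 0.078), but it was without day 2 array 3 (adjusted p = 0.00827), with normexp (adjusted p = 0.00898), over the median of both probes (adjusted p = 0.0333) and in the slide-blocked fit (4.44, adjusted p = 0.00221), a value that rests on day 2 array 1. Most similar in course to the brighter Rbfox1 probe were Dstyk (r = 0.956), Gpr153 (r = 0.954) and Pof1b (r = 0.952).

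Rbfox2, the broadly expressed relative of Rbfox1, rose by a small amount, on all 6 probes at days 5 and 8 and on 1 of 6 at day 2. Its signal (NM_175387) was 518, 642 and 448 at proliferation, 684, 1092 and 808 at day 2, 1008, 1075 and 955 at day 5, and 1040, 812 and 926 at day 8. The proliferation arrays lay below all 9 later arrays, and the 3 later stages overlapped one another. The rise was 1.59-fold at day 2 (log2 0.67 ± 0.19 SE, adjusted p = 0.0232), 1.91-fold at day 5 (0.93, adjusted p = 0.00227) and 1.74-fold at day 8 (0.80, adjusted p = 0.00499). In the slide-blocked fit none of the 3 was called: 0.37 (adjusted p = 0.356), 0.52 (adjusted p = 0.323) and 0.47 (adjusted p = 0.517). The within-slide change was 0.37 from proliferation to day 2, 0.15 from day 2 to day 5 and -0.05 from day 5 to day 8. The day 2 rise missed the threshold when proliferation array 1 (adjusted p = 0.0627), proliferation array 3 (0.0729) or day 2 array 2 (0.083) was left out, and with normexp (0.17, adjusted p = 0.634) or all probes tested (0.0595). All 6 Rbfox2 probes rose at day 5 (0.77 to 1.01) and at day 8 (0.60 to 1.03), and 1 of 6 at day 2. The genes closest in course were Mamdc4 (r = 0.961), Emc10 (r = 0.953) and Tapbp (r = 0.951).

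Celf2 and Celf1, which bind GU-rich RNA and often oppose MBNL proteins, moved in opposite directions. Celf2 (NM_001110231) read 113, 120 and 127 at proliferation and 145, 160 and 102 at day 2, and these stages overlapped. It read 627, 624 and 630 at day 5 and 696, 544 and 577 at day 8, all at least 544. The rise came between day 2 and day 5 (4.71-fold, log2 2.24 ± 0.17 SE, adjusted p = 3.87e-06). Against proliferation it was 5.23-fold at day 5 (2.39, adjusted p = 1.11e-06) and 5.02-fold at day 8 (2.33, adjusted p = 1.03e-06), and at day 2 the change was 0.15 (adjusted p = 0.536). In the slide-blocked fit it stayed called at day 5 (2.57, adjusted p = 0.000896) and day 8 (2.51, adjusted p = 0.00451), and the step within slide 2 was 2.30. All 8 Celf2 probes, each for another transcript accession, rose at day 5 (2.37 to 2.72) and day 8 (2.14 to 2.65). Of the 8, the probe for NM_001110230 alone rose at day 2 (0.61, adjusted p = 0.00675). Whether probes of a gene read the same stretch of RNA is not given in the sources used here. Closest in course were the DNA methyltransferase gene Dnmt3a (r = 0.994), Ccn5 (r = 0.994) and the growth factor gene Igf2 (r = 0.993).

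Celf1 (NM_017368) read 1724, 1593 and 2816 at proliferation, 1472, 1296 and 2269 at day 2, 760, 686 and 965 at day 5, and 645, 903 and 574 at day 8. The 6 arrays of days 5 and 8 lay below the 6 earlier ones. The fall was 2.49-fold at day 5 (log2 -1.31 ± 0.28 SE, adjusted p = 0.00276) and 2.85-fold at day 8 (-1.51, adjusted p = 0.000983). In the slide-blocked fit the values were as low, at -1.67 and -2.15, but missed the threshold (adjusted p = 0.0524 and 0.0579). The step from day 2 to day 5 was -1.03 (adjusted p = 0.0168), and -1.25 in the slide-blocked fit (adjusted p = 0.032). That step missed the threshold when day 2 array 3 (adjusted p = 0.0682), day 5 array 1 (0.0512) or day 5 array 2 (0.0585) was left out.

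The second Celf1 probe (NM_198683) read 2522, 1523 and 1808 at proliferation and 1154, 1041 and 1322 at day 2. It read 509, 480 and 444 at day 5, and 599, 926 and 592 at day 8. It fell already at day 2 (log2 -0.71 ± 0.22 SE, adjusted p = 0.032), was at 0.25 of its starting level at day 5 (adjusted p = 2.65e-05) and 2.77-fold lower at day 8 (adjusted p = 0.000224). From day 5 to day 8 the Celf1 probes differed in sign, at -0.20 and 0.53, and neither was called. Most similar to Celf1 in course were Cmc2 (r = 0.974), Tmem198b (r = 0.967) and Pop4 (r = 0.963).

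Mbnl1, the main muscleblind-like gene of adult muscle, was lower at day 2. Its signal (NM_020007) was 26220, 18481 and 20800 at proliferation and 16793, 11378 and 11615 at day 2, with no overlap. At day 5 it was 15554, 14413 and 17205, and at day 8 22690, 14155 and 21192. The day 5 arrays also lay below all proliferation arrays, and the day 8 arrays overlapped every other stage. The fall at day 2 was 1.66-fold (log2 -0.73 ± 0.22 SE, adjusted p = 0.0296). The changes of -0.46 at day 5 (adjusted p = 0.11) and -0.19 at day 8 (adjusted p = 0.493) were not called, nor was Mbnl1 by the F test (adjusted p = 0.0532). The day 2 fall was not called in the slide-blocked fit (-0.36, adjusted p = 0.414). It also missed the threshold when proliferation array 1 (adjusted p = 0.106) or 3 (0.0522) or day 2 array 2 (0.0982) or 3 (0.0915) was left out, and with all probes tested (0.0707). Day 2 array 1, the only one on the slide of the proliferation arrays, was the highest of its stage.

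Mbnl2, a paralog that acts on many of the same exons, was low at day 2 and day 5 and near its starting level at day 8. Its signal (NM_175341) was 19238, 16274 and 18593 at proliferation, 14457, 12636 and 11714 at day 2, 11365, 10029 and 14379 at day 5, and 18139, 16409 and 18517 at day 8. The 6 arrays of days 2 and 5 lay below the 6 of proliferation and day 8. It fell 1.40-fold at day 2 (log2 -0.48 ± 0.16 SE, adjusted p = 0.0379) and 1.53-fold at day 5 (-0.61, adjusted p = 0.00775), and rose from day 5 to day 8 (0.58, adjusted p = 0.0353). At day 8 it differed from proliferation by -0.03 (adjusted p = 0.898). The probe for NM_207515 gave -0.41 at day 2 (adjusted p = 0.0506), -0.60 at day 5 (adjusted p = 0.00487) and 0.62 from day 5 to day 8 (adjusted p = 0.0199). None of the 3 Mbnl2 calls held in the slide-blocked fit: -0.32 (adjusted p = 0.272), -0.50 (adjusted p = 0.179) and 0.30 (adjusted p = 0.405).

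The Mbnl2 fall at day 2 missed the threshold on leaving out proliferation array 1 (adjusted p = 0.107) or 3 (0.0838), on leaving out day 2 array 2 (0.0922) or 3 (0.115), day 5 array 1 (0.0535), and day 8 array 1 (0.0522) or 3 (0.0507). The Mbnl2 rise from day 5 to day 8 missed it on leaving out day 5 array 1 (adjusted p = 0.113) or 2 (0.109), or day 8 array 1 (0.0981), 2 (0.0575) or 3 (0.1). With normexp, the change was -0.23 at day 2 (adjusted p = 0.27) and 0.30 from day 5 to day 8 (adjusted p = 0.267), and with all probes tested the adjusted p was 0.0939 and 0.0936. Scoc (r = 0.954), AW146154 (r = 0.926) and Cspp1 (r = 0.924) followed the course of Mbnl2 most closely.

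Mbnl3, the muscleblind-like gene that is more active in dividing and regenerating muscle cells and is known to hold back differentiation, was lowest at day 5. Its signal (NM_134163) was 2489, 2866 and 3006 at proliferation, 2194, 2371 and 2819 at day 2, 1240, 1179 and 1135 at day 5, and 1698, 1426 and 1939 at day 8. Proliferation and day 2 overlapped, day 5 lay below every other array, and day 8 lay between. The fall was 2.35-fold at day 5 (log2 -1.23 ± 0.15 SE, adjusted p = 6.07e-05) and 1.66-fold at day 8 (-0.73, adjusted p = 0.00197), with a step of -1.05 from day 2 to day 5 (adjusted p = 0.00035). In the slide-blocked fit the day 5 fall held (-1.44, adjusted p = 0.00763) and the day 8 fall did not (-0.88, adjusted p = 0.143). The later change of 0.50 from day 5 to day 8 was not called (adjusted p = 0.054). It was called without day 8 array 2 (adjusted p = 0.0411) and when the percentile came from probes detected on every array (adjusted p = 0.0301). Nearest to Mbnl3 in course were Serp2 (r = 0.979), the angiopoietin gene Angpt2 (r = 0.977) and Cep70 (r = 0.971).

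Ptbp1, the repressor of tissue-specific exons in dividing cells, fell between day 2 and day 5. Its signal (NM_001077363) was 34202, 46308 and 45583 at proliferation, 35665, 37912 and 36388 at day 2, 16887, 19650 and 16950 at day 5, and 15859, 11702 and 17523 at day 8. All 6 arrays of days 5 and 8 lay below all 6 earlier ones, which overlapped. The fall was 2.34-fold at day 5 (log2 -1.23 ± 0.17 SE, adjusted p = 0.000182) and 2.81-fold at day 8 (-1.49, adjusted p = 3.77e-05), and the step from day 2 to day 5 was -1.04 (adjusted p = 0.000981). In the slide-blocked fit the fall was called at day 5 (-1.25, adjusted p = 0.0333), while at day 8 it was as large but missed the threshold (-1.45, adjusted p = 0.0549). The other Ptbp1 probe (NM_008956) fell by 1.18 at day 5 and by 1.27 at day 8. At day 2 the 2 probes gave -0.18 and 0.09, neither called. Anp32b (r = 0.986), the folate carrier gene Slc19a1 (r = 0.981) and Snrpg, a core spliceosome gene (r = 0.980), were closest to Ptbp1 in course.

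Ptbp2, the neuronal paralog, was dim and fell at day 2. Its signal (NM_019550) was 137, 118 and 67.6 at proliferation, 40.1, 66.4 and 40.7 at day 2, 65.3, 63.0 and 36.1 at day 5, and 70.3, 52.1 and 64.4 at day 8. Proliferation array 3 lay close to the highest later arrays, and day 8 array 1 exceeded it. The fall was 2.16-fold at day 2 (log2 -1.11 ± 0.32 SE, adjusted p = 0.0233; -1.36 in the slide-blocked fit, adjusted p = 0.0496) and 1.94-fold at day 5 (-0.96, adjusted p = 0.0285). The day 5 fall was not called in the slide-blocked fit (-1.06, adjusted p = 0.188). The difference of -0.73 at day 8 was not called (adjusted p = 0.0714), but was on leaving out proliferation array 3 (-1.04, adjusted p = 0.0171), and on leaving out the third day 5 array (adjusted p = 0.0457). The negative-probe spots had a median signal of 6.25, 5.39 and 2.42 on proliferation arrays 1, 2 and 3 and of 1.39 to 3.53 on later arrays, and the part of this level in the Ptbp2 values was not tested.

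The Ptbp2 fall at day 2 missed the threshold when proliferation array 1 (adjusted p = 0.0879) or 2 (0.0736) or day 2 array 1 (0.0733) or 3 (0.0744) was left out. At day 5 the same happened for Ptbp2 with proliferation array 1 (adjusted p = 0.105) or 2 (0.0862) or day 5 array 3 (0.102) left out, and with all probes tested the adjusted p was 0.0554 at day 2 and 0.0592 at day 5. Normexp background correction kept both Ptbp2 calls at a smaller size, -0.61 and -0.54. The nearest courses to Ptbp2 were those of Riok1 (r = 0.932), Kpna3 (r = 0.922) and Asxl2 (r = 0.920).

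**Figure D2:**
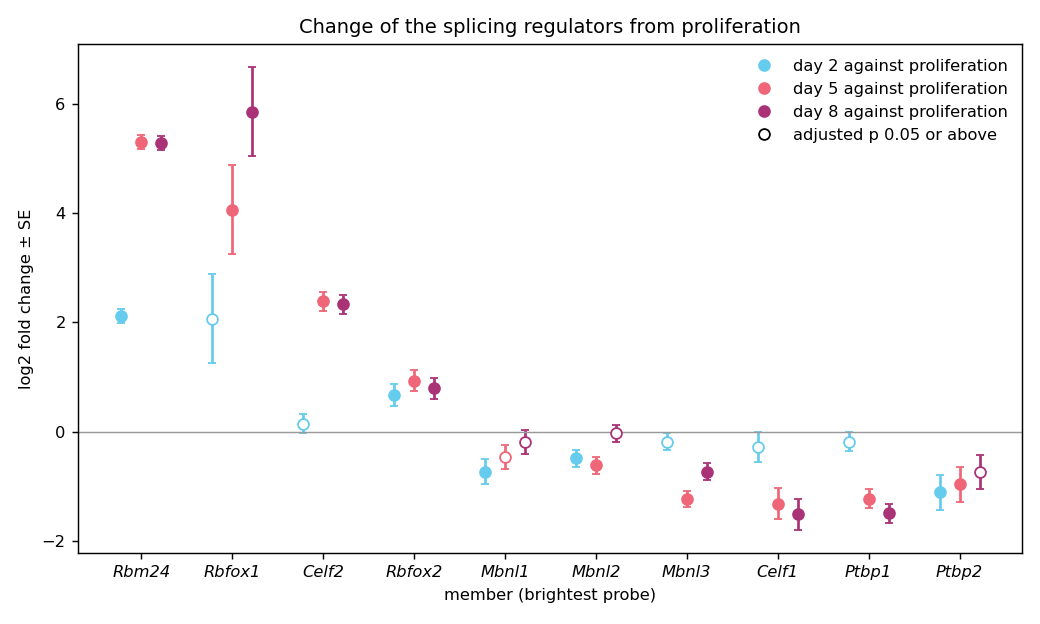
Log2 fold change of the brightest probe of each member against proliferation at day 2, 5 and 8, with ± 1 SE from limma (n = 3 arrays per stage); open circles mark an adjusted p of 0.05 or above. Rbm24, Rbfox1 and Celf2 are above 2 at days 5 and 8, and Rbfox1 has the widest error bars.

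Among the members with several probes, no probe was called in the direction opposite to another probe of the same gene. At day 5 the Celf1 probes stood at 0.40 and 0.25 of the proliferation level.

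**Figure D3:**
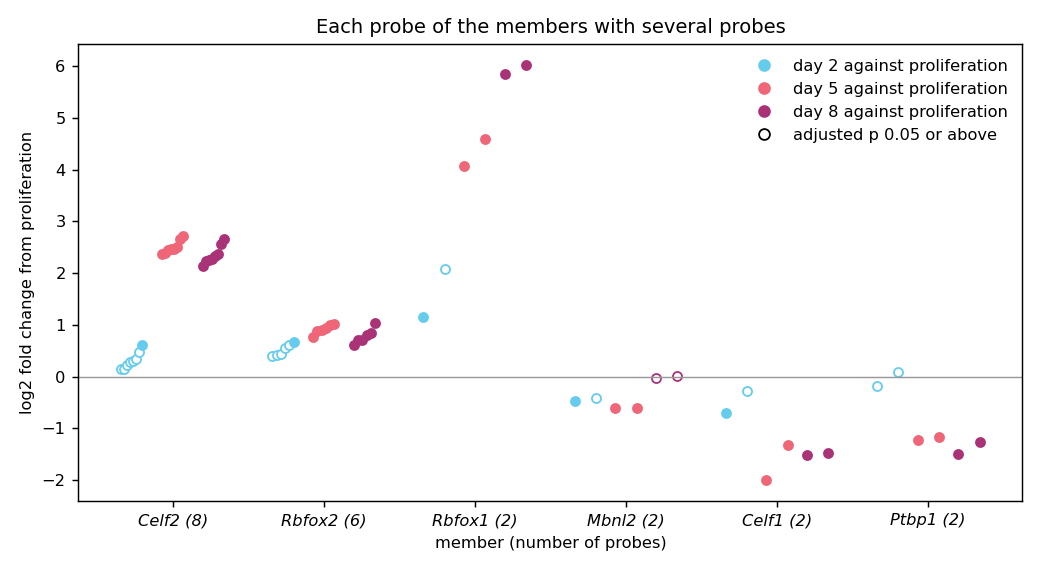
Log2 fold change against proliferation of each probe of the 6 members with more than 1 probe, at day 2, 5 and 8; the number of probes is in brackets and open circles mark an adjusted p of 0.05 or above. The 8 Celf2 probes lie between 2.14 and 2.72 at days 5 and 8.

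Of the 27 member results called in the 5 comparisons, 15 were also called in the slide-blocked fit, and none of the 27 changed sign. Rbm24 and Celf2 kept all their calls in that fit, and the values of Rbm24 moved by little, from 5.30 to 5.41 at day 5 and from 5.28 to 5.23 at day 8. The values of Rbfox2, Mbnl1 and Mbnl2 at day 2 moved towards 0. Blocked values at day 2 equal the change within slide 1, where 1 day 2 array stands against 3 proliferation arrays. Within slide 2, with 2 arrays of each stage, the step from day 2 to day 5 was -1.10 for Mbnl3, -1.03 for Ptbp1, 0.38 for Mbnl1, -0.19 for Mbnl2 and 0.30 for Ptbp2. For Rbfox1 that step was 3.18, with 1 of the 2 day 2 arrays not well above background. Within slide 3, with 3 day 8 arrays and 1 day 5 array, the step from day 5 to day 8 was 1.80 for Rbfox1, 0.56 for Mbnl3, -0.48 for Celf1, -0.19 for Ptbp1, 0.14 for Mbnl1 and 0.78 for Ptbp2. Whether slide or stage carries the rest of these differences cannot be told apart.

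**Figure D4:**
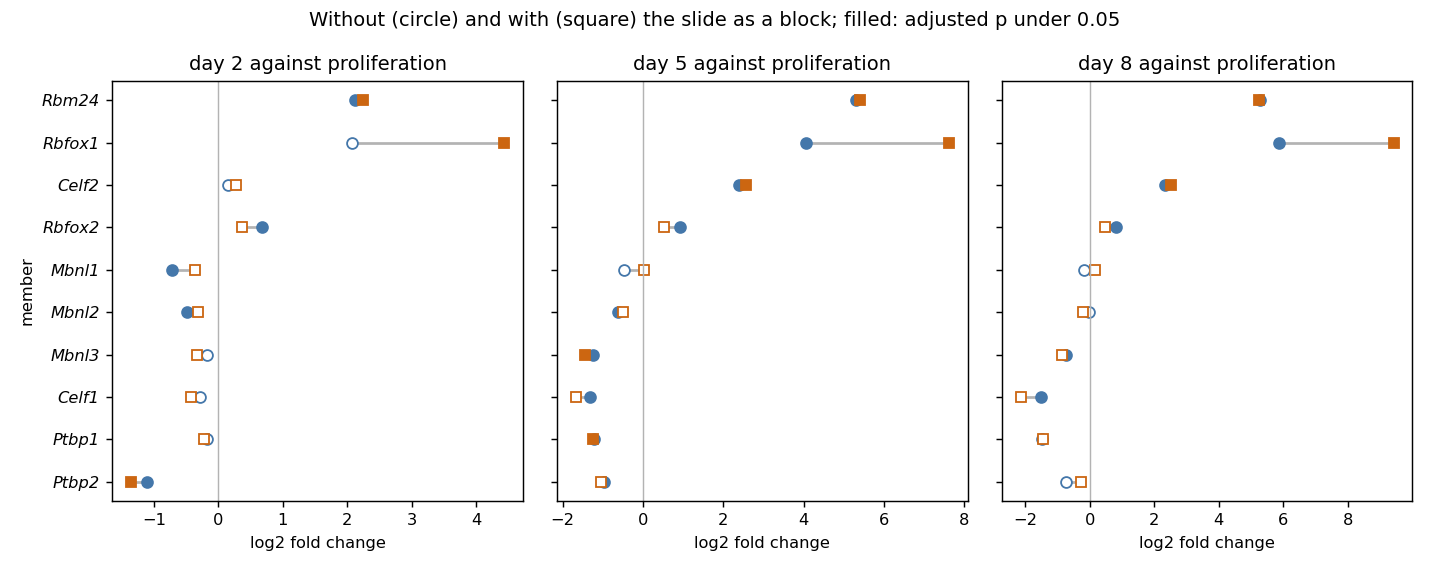
Log2 fold change of each member against proliferation at day 2, 5 and 8 without the slide (circles) and in the slide-blocked fit (squares); filled symbols have an adjusted p under 0.05. Circle and square nearly coincide for Rbm24 and Celf2, and for Rbfox1 at day 8 they lie at 5.85 and 9.42.

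Other factors that regulate exons by tissue gave a mixed picture. Of 27 tested, 3 were higher and 12 lower at day 8, where 25.4% and 29.4% of all probes were, and 5 were higher with normexp or without proliferation array 1. The median was -0.28 beside -0.11 for all probes. The CELF paralog Celf4 (log2 -2.13 ± 0.19 SE, adjusted p = 5.11e-06), Rbm4 (-1.77) and the nuclear matrix gene Matr3 (-1.31) were among those that fell most. Zfp106 (0.77), Rbm6 (0.73) and Rbm5 (0.51) rose. At day 2, 2 were higher and 7 lower, beside 18.3% and 12.2% of all probes. At day 5, 5 were higher and 10 lower, beside 23.7% and 23.8%. After blocking by slide, 1 was higher and 3 were lower at day 8, beside 2226 and 1745 of all 22954 probes.

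The SR proteins, which bind exons and mostly favour their inclusion, were mostly lower at each stage. Of 12 tested, 0 rose at day 2 (also 0 at an unadjusted p under 0.05 in limma) and 8 fell. For all probes, the share at the unadjusted cut is not given here. At day 5, 2 rose and 10 fell, and at day 8, 1 rose and 9 fell, with a median of -0.81 at day 8. Of all probes, 18.3% rose and 12.2% fell at day 2, 23.7% and 23.8% at day 5, and 25.4% and 29.4% at day 8. Srsf4 (log2 -2.34 ± 0.41 SE, adjusted p = 0.000672), Srsf9 (-1.56), Tra2a (-1.14) and Srsf11 (-1.08) fell most, and Srsf5 rose (0.92). At day 8, 5 fell and 0 rose in the slide-blocked fit, beside 1745 and 2226 of all 22954 probes.

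Of 23 hnRNP genes, whose proteins coat nascent RNA and often silence exons, 12 fell and 3 rose at day 8, with a median of -0.46. Hnrnpf (log2 -2.10 ± 0.32 SE, adjusted p = 0.000262), Hnrnpc (-1.41), Hnrnpab (-1.08) and Hnrnpa2b1 (-1.01) fell most. Hnrnpul1 (1.32), Hnrnph3 (0.75) and Hnrnpul2 (0.72) rose. At day 2, 1 rose and 10 fell, and at day 5, 1 rose and 12 fell. The shares of all probes that rose and fell were 18.3% and 12.2% at day 2 and 23.7% and 23.8% at day 5. They were 25.4% and 29.4% at day 8. Once the slide was blocked, 2 fell and 1 rose at day 8, beside 1745 and 2226 of all 22954 probes.

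Of 37 tested core spliceosome genes, the shared machinery of splicing, 2 rose and 5 fell at day 2, 0 rose and 12 fell at day 5, and 0 rose and 23 fell at day 8. Of all probes, 18.3% rose and 12.2% fell at day 2, 23.7% and 23.8% at day 5, and 25.4% and 29.4% at day 8. At day 5 and day 8, 25 and 14 of the 37 genes were not called. At an unadjusted p under 0.05 in limma, 0 rose at both later stages and 17 and 29 fell. The share of all probes at that unadjusted cut is not given here, and the shares above are for the adjusted p. The day 8 median was -0.68. Snrpc, a protein of the U1 particle (log2 -2.63 ± 0.47 SE, adjusted p = 0.000767), Snrnp40 (-1.98), Snrpd1 (-1.96) and Aqr (-1.83) fell most. Slide-blocked, 2 of the 37 fell at day 8, where 1745 of all 22954 probes fell. Without proliferation array 1, 1 rose at day 8.

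**Figure D5:**
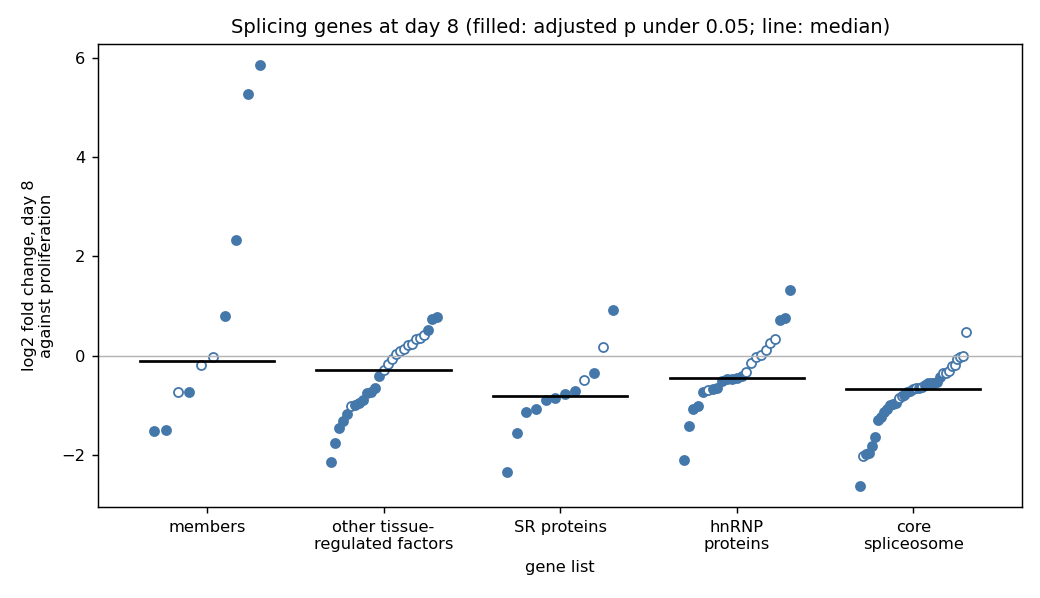
Log2 fold change at day 8 against proliferation of each tested gene of the 10 members and of 4 lists of splicing genes; filled points have an adjusted p under 0.05 and the bar is the list's median. The members spread from -1.51 to 5.85, while no gene of the other lists rises above 1.32. The 5.85 is that of Rbfox1 and rests on background readings at proliferation.

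A further list held genes with exons that these regulators are known to control; the probes read their amount and not their exon choice. Of 33 tested, 12 rose and 3 fell at day 2, 19 rose and 4 fell at day 5, and 17 rose and 5 fell at day 8, with a day 8 median of 0.67. Among all probes, 18.3% rose and 12.2% fell at day 2, 23.7% and 23.8% at day 5, and 25.4% and 29.4% at day 8. Fast troponin T, Tnnt3 (log2 7.66 ± 0.26 SE, adjusted p = 4.9e-09), the calcium release channel Ryr1 (5.95), the calcium pump Atp2a1 (5.76) and the kinase subunit Camk2b (5.72) rose most. Bin1, a membrane-shaping protein of the T-tubule (-1.92), Tpm1 (-1.05), the calcium channel Cacna1s (-0.95) and Fgfr2 (-0.65) fell. The slide-blocked fit had 12 higher and 0 lower at day 8, beside 2226 and 1745 of all 22954 probes. Rather than 5, 3 of these genes fell without day 8 array 2 and with quantile normalization, 2 with normexp and 1 without non-uniform spots. The number higher went from 17 to 10 without non-uniform spots.

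Because Celf2, Rbfox1 and Ptbp2 are also active in neurons, markers of other cell types were read beside them. Of 8 neural markers, 6 were well above background on every array, while Rbfox3 and Syp were so on 2 of 12 arrays each. The summed neural signal was 100240 to 120334 at proliferation and 118909 to 128754 at day 2. It was 29013 to 33356 at day 5 and 27642 to 30070 at day 8. A sum gives the most weight to the brightest probes. Nefm (log2 -4.76) and Nefl (-3.74), neurofilament genes, fell most at day 8, and Map2 rose (1.11). At day 5 Nefm, Nefl and Tubb3 were lower, Map2 was higher (1.03), and Snap25 and Gfap were not called. Of the 5 macrophage markers on the array, Adgre1 and Itgam were well above background on 0 of 12 arrays, Ptprc on 2, Aif1 on 10 and Csf1r on 12. Their summed signal was 111 to 184 at proliferation, 169 to 211 at day 2, 198 to 231 at day 5 and 277 to 360 at day 8. Csf1r and Aif1 were higher at day 5 (1.60-fold and 2.45-fold) and at day 8 (2.44-fold and 2.94-fold), the stages at which Rbm24, Rbfox1 and Celf2 were higher. Aif1 was higher at day 2 as well (2.91-fold), and at proliferation 1 of its 3 arrays was well above background. Of 4 adipocyte markers, Adipoq and Plin1 were well above background on 0 arrays and Fabp4 on 1, while Pparg was so on 12 and was lower at day 2, 5 and 8 (log2 -0.84, -1.65 and -1.54). The adipocyte sum was 2163 to 8000.4, highest at proliferation. Of 4 endothelial markers, 1 to 4 were above background per array. Their summed signal was 338 to 466 at proliferation, 1242 to 1689 at day 2, 1075 to 1385 at day 5 and 760 to 982 at day 8. Tek was 5.81-fold, 5.21-fold and 3.93-fold higher at the 3 stages, Kdr was lower at all 3 (-1.06, -2.91 and -3.18) and Cdh5 at day 5 and day 8 (-1.80 and -2.17); at day 8 Kdr was well above background on 1 of 3 arrays and Cdh5 on 2. Of 8 osteoblast markers, 6 or 7 were above background per array. Their summed signal was 200588 to 294250 at proliferation, 220095 to 260404 at day 2, 149634 to 174039 at day 5 and 168510 to 250724 at day 8. Dmp1 was higher at day 5 and day 8 (3.20-fold and 1.72-fold). Bglap was lower at day 5 and day 8 (log2 -1.14 and -1.05), Phex at day 2 and day 5 (-0.73 and -0.84) and Spp1 at day 5 (-0.52). The part of these levels in the members' values was not tested.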

How the data were processed

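The authors deposited the scanner output of 12 one-colour Agilent arrays, with signals as intensity per the file headers; the submitters' processing notes name Agilent Feature Extraction 10.5.1.1. 1 µg of RNA was labelled with Cy3, per the labels' protocols. Of 39448 spots per array, 37831 spots of 37246 probes were used; 56.9% to 69.5% were well above background and 0 were saturated. Flagged non-uniform spots (19.8% to 28.3%) were kept. Here log2 intensities were averaged over the spots of a probe, without population outliers, and the array's 75th percentile was subtracted. limma 3.58.1 (lmFit, eBayes; R 4.3.3, data.table version 1.17.8) was fitted to all 12 arrays with a mean for each stage, and p-values were adjusted by Benjamini-Hochberg over 22954 probes. Names came from RefSeq annotation on GRCm38.p6 (22216 probes of 19259 symbols); the file headers name mm9 and no coordinates. Of other genes, up to 4 per list and direction with the largest day 8 change among those called are named, and the 3 genes with the highest Pearson r over the 12 arrays for each member called by the F test. A gene that this rule names is not reported here. These r share the arrays and are descriptions. The deposited columns used hold no mean signal, so the normexp alternative (offset 50) used the median signal and background. The members and lists were chosen with earlier results of these data known. A slide-blocked fit added the slide as a term. Alternatives were 8 other settings and leaving out each of 12 arrays. On simulated data, only a small share of the probes was changed at day 8. There, 47% of probes changed by a log2 size of 1 and 81% of those changed by 2 were recovered, and 9 of 137 calls were false. In the data 54.8% of probes were called at day 8, so these recovery shares need not hold there. Plots used matplotlib 3.10.9 (Python 3.11.15, pandas 2.3.3). The number of arrays limits the precision.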

Additional observations from a re-analysis of the deposited data

How the results depend on the processing

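Of the 27 called member results, quantile normalization, the percentile of probes detected on every array, the median over a gene's probes and the replicate block kept 27, normexp kept 24, testing all probes kept 21 and the slide block kept 15; none changed sign. Without non-uniform spots only 7 had a value, all kept, those of Mbnl3, Rbfox1 and Ptbp2. Mbnl1, Mbnl2 and Rbfox2 lost all 12 arrays there, Celf1 and Ptbp1 kept 1, Celf2 lost days 5 and 8, and Rbm24 lost every array after proliferation, so this setting says nothing about their calls. Leaving out 1 array kept 22 to 26. In the gene lists, the day 8 falls also dropped without non-uniform spots. They went from 12 to 5 for the other tissue-regulated factors and from 9 to 4 for SR proteins. For hnRNP genes they went from 12 to 3 and for the core spliceosome from 23 to 4. How many of these genes kept a value is not given here.

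Members called numbered, at day 2, 3 with the slide block, and 1 each without the filter on dim probes and after leaving out non-uniform spots. At day 5 the slide block left 5 and the fit without non-uniform spots 3, and at day 8, 3 and 2. From day 2 to day 5, 1 was called without non-uniform spots. From day 5 to day 8, 2 were called with the percentile of probes detected on every array, and 0 with the slide block, without the filter, and without non-uniform spots. By the F test, 3 were called without non-uniform spots and 5 with the slide block. The shares of all probes in these F tests are not given here. Over the 12 fits that left out 1 array, members called ranged from 1 to 5 at day 2, 8 to 9 at day 5, 7 to 8 at day 8, 4 to 6 from day 2 to day 5, 0 to 2 from day 5 to day 8, and 8 to 9 by the F test. At day 2 they were 1 without proliferation array 1, 2 without proliferation array 3, 2 without day 2 array 2 and 3 without day 2 array 3.

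Of all probes, the slide block called 3519 at day 2, 5210 at day 5, 3971 at day 8 and 744 from day 5 to day 8, against 7018, 10914, 12571 and 2894. Without non-uniform spots 3465, 5728, 7067, 3658 (day 2 to day 5) and 1419 (day 5 to day 8) were called. From day 5 to day 8, normexp called 1836 and the fit without the filter 1282. Leaving out 1 array gave 5082 to 7309 at day 2, 9595 to 10978 at day 5, 11095 to 13009 at day 8, 5662 to 7180 from day 2 to day 5 and 1122 to 3394 from day 5 to day 8. Of the probes called at day 2, 60% were higher (72.8% with normexp), and from day 5 to day 8, 46.7% (57.2% with quantile normalization, 58.9% with the slide block). Of the probes called at day 8, 46.4% were higher, and 60.7% with normexp, which moved the median of all probes from -0.11 to 0.15.

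Changes of sign fell on uncalled values. With normexp they were Ptbp1 at day 2 (0.061), and Celf1 (0.11), Rbfox2 (0.11) and Rbm24 (0.22) from day 5 to day 8. Rbm24 from day 5 to day 8 was 0.0051 under quantile normalization and 0.019 under the percentile of probes detected on every array. Celf1 from day 5 to day 8 was 0.17 over the median of its probes. With the slide block Mbnl1 was 0.018 at day 5 and 0.16 at day 8. When 1 array was left out, Mbnl1 at day 8 ranged from -0.32 to 0.022 (positive without day 8 array 2) and Mbnl2 at day 8 from -0.099 to 0.027 (positive without proliferation array 1 or day 8 array 2). Ptbp2 ranged from -0.000395 to 0.43 from day 2 to day 5 (negative without day 5 array 1) and from -0.053 to 0.37 from day 5 to day 8 (negative without day 5 array 3). Celf2 from day 5 to day 8 ranged from -0.16 to 0.016 (positive without day 8 array 2), and Rbm24 from -0.11 to 0.051 (positive without day 5 array 3, day 8 array 1 or day 8 array 3). The cause was not tested.

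Same-numbered arrays of different stages did not deviate together (correlations of -0.155 to 0.243, median 0.00532, over 18 pairs, against -0.264 to 0.222 over 36 pairs of different numbers; 5 of 12 arrays correlated best with their own number). With the replicate number as a block, Mbnl1 at day 5 (-0.46, adjusted p = 0.045) and Ptbp2 at day 8 (-0.73, adjusted p = 0.0461) were called in addition.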
